A study of Mus musculus with 24 samples.

Results

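Gene expression in BV-2 cells exposed to Δ9-tetrahydrocannabinol (THC) alone was compared with that in untreated cells of the same line. BV-2 is an immortalized mouse microglial line, and all groups share it. The comparison takes the arrays whose condition label is THC, 4 in number, and those labelled Cntr, 6 in number, which makes 10 of the 24 arrays of the series. THC was given at 10 µM for 6 h from an ethanol stock, as the study's methods state, whereas the labels give no dose, time or vehicle, so Cntr is taken as untreated. The other groups used here for comparison were cells given bacterial lipopolysaccharide (LPS, 6 arrays, 100 ng/ml for 4 h), THC followed 2 h later by LPS (THC+LPS, 4 arrays), and cannabidiol (CBD, 2 arrays, 10 µM for 6 h). Total RNA was hybridized to Illumina MouseRef-8 BeadChips with 24611 probes, and signals are given as background-corrected, quantile-normalized log2 values. The study's methods describe 4 replicates and independent arrays per treatment, but not whether these were separate cultures. A p-value here reflects only how far these samples scatter, part of which may be technical.

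THC is the psychoactive cannabinoid of Cannabis and an agonist of the cannabinoid receptors CB1 and CB2. Microglia are the resident macrophages of the brain, and cannabinoids are known in these cells mostly for their effects on inflammatory and stress genes. Cells that run short of amino acids, accumulate unfolded protein or suffer oxidative stress phosphorylate the initiation factor eIF2α, which slows translation in general but favours that of the transcription factor ATF4. ATF4 and its partners then induce genes of amino acid synthesis, uptake and tRNA charging, and this program is called the integrated stress response. The unfolded protein response of the endoplasmic reticulum (ER) overlaps with it and adds chaperones such as Hspa5 (BiP) through ATF6 and XBP1.

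The promoters of 5 genes are shown because 4 of them carried the largest THC differences among the stress genes and the 5th, that of Hspa5, belongs to the chaperone arm. Each is 300 bases from RefSeq (mouse build GRCm38.p6), 250 before to 50 after the gene's start, printed 5′ to 3′ on the gene's strand. Herpud1 lies at chr8:94386179-94386478 (plus strand), Slc1a4 at chr11:20332664-20332963 (minus), Nupr1 at chr7:126625421-126625720 (minus), Chac1 at chr2:119350992-119351291 (plus) and Hspa5 at chr2:34771840-34772139 (plus). Capitals mark the letters of 3 motifs searched on both strands, which are the C/EBP-ATF response element (CARE, searched as TGATGNAA), the ER stress response element (ERSE, CCAAT followed by 9 bases and CCACG) and its second form ERSE-II (ATTGG, 1 base and CCACG).
Herpud1: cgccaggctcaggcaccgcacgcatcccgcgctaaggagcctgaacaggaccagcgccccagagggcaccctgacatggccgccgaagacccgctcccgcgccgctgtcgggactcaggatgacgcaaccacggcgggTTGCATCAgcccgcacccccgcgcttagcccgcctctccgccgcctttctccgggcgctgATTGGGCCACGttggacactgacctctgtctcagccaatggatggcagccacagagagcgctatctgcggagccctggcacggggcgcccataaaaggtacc
Slc1a4: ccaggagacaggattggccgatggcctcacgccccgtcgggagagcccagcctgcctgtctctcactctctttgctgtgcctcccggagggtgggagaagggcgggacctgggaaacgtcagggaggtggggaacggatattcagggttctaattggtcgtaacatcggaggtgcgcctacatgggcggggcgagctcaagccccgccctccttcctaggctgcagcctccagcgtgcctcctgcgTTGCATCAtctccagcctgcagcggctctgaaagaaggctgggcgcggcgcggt
Nupr1: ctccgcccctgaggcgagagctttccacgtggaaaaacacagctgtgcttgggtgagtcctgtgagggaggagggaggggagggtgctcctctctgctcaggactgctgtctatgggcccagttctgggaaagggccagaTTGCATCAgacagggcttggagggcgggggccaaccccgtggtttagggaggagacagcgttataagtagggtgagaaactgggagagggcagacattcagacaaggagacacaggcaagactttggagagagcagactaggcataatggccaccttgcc
Chac1: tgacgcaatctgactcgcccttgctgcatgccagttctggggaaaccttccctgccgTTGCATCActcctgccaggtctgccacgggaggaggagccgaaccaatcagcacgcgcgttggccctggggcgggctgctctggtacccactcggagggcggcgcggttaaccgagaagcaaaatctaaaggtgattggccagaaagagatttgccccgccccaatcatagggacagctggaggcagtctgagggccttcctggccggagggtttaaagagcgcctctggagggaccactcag
Hspa5: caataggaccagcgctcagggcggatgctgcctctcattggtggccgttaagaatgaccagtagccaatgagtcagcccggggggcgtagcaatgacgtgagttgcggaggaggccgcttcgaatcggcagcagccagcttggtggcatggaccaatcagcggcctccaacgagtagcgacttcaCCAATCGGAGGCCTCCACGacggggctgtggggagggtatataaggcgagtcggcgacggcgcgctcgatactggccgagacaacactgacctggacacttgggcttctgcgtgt
The CARE letters stood once in each of the first 4, reading TTGCATCA on the printed strand, and began 112, 4, 110 and 193 bases before the start of Herpud1, Slc1a4, Nupr1 and Chac1. Herpud1 held ERSE-II as well, 52 bases before its start, and Hspa5 held ERSE at 65 bases. Of 32851 promoters of this length 3.97% held CARE, 0.119% ERSE and 0.0365% ERSE-II. These matches describe letters in a window and show no binding.

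With THC one gene rose past the adjusted threshold, Herpud1, which encodes an ER membrane protein that takes part in the degradation of misfolded proteins. Herpud1 gave 11.23, 10.70, 10.47 and 10.83 on the 4 THC arrays, and 8.93, 9.53 and 9.89 as the lowest, median and highest of the 6 Cntr arrays. Every THC array was above every Cntr array. The difference was 1.33 (SE 0.17) in log2, or 2.51-fold, with an adjusted p of 0.00678 in limma over all probes. An exact two-sided permutation test of the 10 values gave p = 0.00476, the smallest that its 210 splits allow. Herpud1 was picked with earlier results of these data known, so the permutation test adds no separate support. The highest THC value belonged to replicate 1, and without that array the difference was 1.19 with an adjusted p of 0.0595, so the call at 0.05 was lost while the 3 remaining arrays still lay above all 6 controls. The call was also lost without THC replicate 4 (adjusted p = 0.0522), with the replicate number as a block (0.0999) and in a fit of the 10 arrays alone (0.765). In bulk RNA, fewer cells expressing a transcript and less of it per cell cannot be told apart.

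The response as a whole was small. At the study's unadjusted threshold of 0.005 there were 65 probes higher with THC (0.264% of those tested) and 31 lower (0.126%), together 96, against the 123 that uniform p-values would give. Past an adjusted p of 0.05 there was 1 probe higher (0.00406%) and none lower, and 1090 probes (4.43%) had an unadjusted p under 0.05. The 4 THC values lay above all 6 Cntr values for 127 probes (0.516%) and below them for 116 (0.471%). Random labels would give each outcome in 1 of 210 splits, a fraction of 0.00476, so both counts were near chance. Among the 96, detection held on all 10 arrays for 43 and on no array for 36, while 9452 of all probes (38.4%) were detected on all 10. Without THC replicate 1 the counts were 61 higher and 24 lower (85 in all, 0.345%), 43 of the 96 probes stayed within the threshold and all 96 kept their sign.

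**Figure D1:**
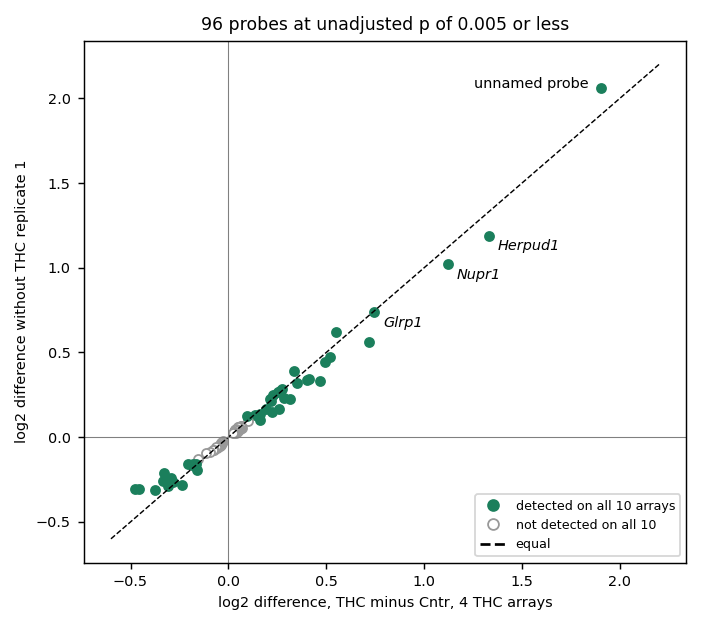
Log2 difference between THC and Cntr for the 96 probes at an unadjusted p of 0.005 or less, with 4 THC arrays on the x axis and without THC replicate 1 on the y axis, filled where the probe was detected on all 10 arrays. All 96 points keep their sign, and Herpud1 moves from 1.33 to 1.19.

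The controls did not form a single group. Chosen after the data were seen, the histone gene H2ac19, which led the first component of the within-group variation (38.2% of it), separated the arrays of the Cntr, THC, LPS and THC+LPS groups into 8 with signals of 10.79 or more and 12 with 8.36 or less. The H2ac19-high arrays were 2 of each group, among them Cntr replicates 1 and 4 and THC replicates 1 and 3. No label names this split, and the study reported no batch effects from clustering of its arrays by correlation. The CBD arrays lay between both sets (8.62 and 10.10) and stay out of the split, and its origin was not tested. Slc1a4 and Chac1 were among the genes with lower signals on the H2ac19-high arrays, and Tnfsf13, Cpe, Fcgr4 and Cd84 among those with higher ones. Since THC and Cntr both held arrays of each kind, the comparison was repeated with the set as a term over those 20 arrays. Its p-values take no account of the term having been chosen from the same data.

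With that term 5 probes were higher with THC past an adjusted p of 0.05 (0.0203%) and none lower, and apart from Herpud1 they included 3 named genes of the amino acid and stress response. Mthfd2, a mitochondrial folate enzyme, gave 13.18, 13.40, 12.97 and 13.45 with THC, and 12.60, 12.94 and 13.12 as the lowest, median and highest Cntr value. The difference was 0.42 (SE 0.05) with an adjusted p of 0.00164. The groups overlapped as a whole, and THC was higher by 0.41 among the H2ac19-high arrays and by 0.42 among the H2ac19-low ones. The 3 genes were picked by the fit with the set term, so their differences within the sets add no separate support.

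Eif4ebp1, an inhibitor of cap-dependent translation induced by ATF4, gave 13.35, 13.82, 13.15 and 13.79 with THC against a lowest, median and highest Cntr value of 12.86, 13.29 and 13.45. Its difference was 0.43 (SE 0.05, adjusted p = 0.00164), 0.37 in the H2ac19-high and 0.47 in the H2ac19-low arrays. Slc1a4, which carries alanine, serine and cysteine, gave 9.80, 10.80, 9.39 and 10.78 against 8.40, 9.32 and 9.89. Its difference of 1.18 (SE 0.17, adjusted p = 0.0136) was 1.13 and 1.25 within the sets. In both genes THC replicates 1 and 3, the H2ac19-high arrays, overlapped with the controls as a whole, while THC replicates 2 and 4 stood above all of them.

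The remaining probe has no gene name in the annotation used here, and it showed the largest change of the 5. It gave 10.13, 11.24, 9.84 and 11.23 with THC and 8.20, 8.62 and 9.27 as the lowest, median and highest Cntr value, with no overlap. Its difference was 2.07 (SE 0.25, adjusted p = 0.00164). Herpud1 was higher by 1.37 in this fit (adjusted p = 0.00164), with 1.80 among H2ac19-high and 1.07 among H2ac19-low arrays.

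Without the set term the same 20 arrays gave 1 call, and in the fit of all groups the unadjusted p-values of Mthfd2, Eif4ebp1 and Slc1a4 were 0.0174, 0.0679 and 0.0105. With the set term and without THC replicate 1, Herpud1 (1.19, adjusted p = 0.00411), Mthfd2 (0.38, 0.00411), Eif4ebp1 (0.40, 0.0073) and the unnamed probe (2.06, 0.00915) were called. Slc1a4 was not (1.14, adjusted p = 0.0617). Lrrc14b (0.78, adjusted p = 0.0312) and Zan (0.40, adjusted p = 0.00476) were called only without that array, on which both were lower than on the other THC arrays.

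**Figure D2:**
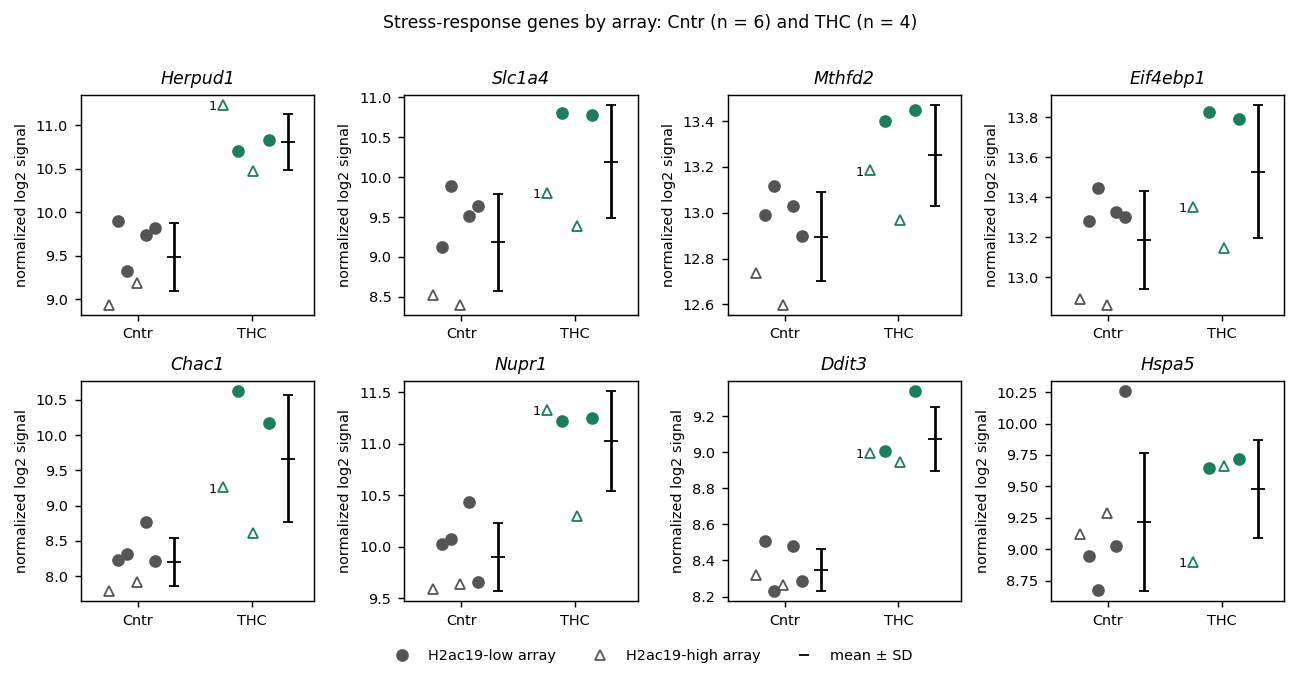
Normalized log2 signal of 8 stress-response genes on each Cntr (grey, n = 6) and THC (green, n = 4) array, as triangles for H2ac19-high and circles for H2ac19-low arrays, with the mean and SD of each group beside the points and THC replicate 1 marked. For Herpud1, Chac1 and Ddit3 the THC arrays separate from Cntr or nearly so, for Slc1a4, Mthfd2 and Eif4ebp1 they do so within each array set, and for Hspa5 they do not.

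The integrated stress response list lay above control by small differences. All 12 members detected on the 10 arrays were higher with THC, with a median of 0.31, beside 4555 of 9452 probes and a median of -0.00 over everything detected. This list and those below were chosen with earlier results of these data known, and members are no independent replicates, so such counts are descriptive. The median was 0.30 without THC replicate 1, 0.36 within the H2ac19-high arrays (11 of 12 higher) and 0.42 within the H2ac19-low arrays (12 of 12). Among 17 measured members only Nupr1 passed the unadjusted threshold of 0.005 in the fit of all groups, where 0.264% of all probes were higher. In the fit with the set term 5 of 17 did (Ddit3, Trib3, Chac1, Nupr1 and Eif4ebp1), where 0.557% of all probes were higher, and of these Eif4ebp1 was called after adjustment.

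Chac1, which degrades glutathione, had the widest spread among them, with 9.26, 10.62, 8.61 and 10.18 on the THC arrays and a lowest, median and highest Cntr value of 7.79, 8.22 and 8.76. Only THC replicate 3 fell within the range of the controls, and the difference was 1.46 (SE 0.53, unadjusted p = 0.012). Within the sets it was 1.08 and 2.02. Nupr1, a small stress-induced nuclear protein, gave 11.33, 11.22, 10.30 and 11.25 against 9.59, 9.84 and 10.43. Its difference of 1.12 (SE 0.30, 2.17-fold) had an unadjusted p of 0.00128 and an adjusted p of 1.00, and was 1.02 without THC replicate 1, where its unadjusted p of 0.00617 no longer passed 0.005.

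Ddit3 (CHOP), the transcription factor that links the response to cell death, gave 8.997, 9.01, 8.95 and 9.34 with THC, all above the highest Cntr value of 8.51. The difference was 0.72 (SE 0.39, unadjusted p = 0.0787). The fit of all groups includes the CBD arrays, which gave 13.24 and 10.996 for this gene. Over the 20 arrays without them the SE was 0.19 (unadjusted p = 0.00125), and with the set term the difference was 0.77 (SE 0.17, unadjusted p = 0.000361). Trib3, a pseudokinase that restrains ATF4, was dim at 7.82, 7.97, 7.76 and 7.96 but also above the highest Cntr value of 7.74. Atf4 itself gave 11.45, 11.72, 10.96 and 11.76 against 10.79, 11.25 and 11.66, a difference of 0.29 (SE 0.27) that did not pass.

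In the lists of genes downstream of ATF4 the members within 0.005 were higher, as 0.557% of all probes were in the fit with the set term. Among amino acid synthesis genes 6 of 7 detected members were higher (median 0.10), and 7 of 7 were within each array set, with a median of 0.27 among the H2ac19-high and 0.11 among the H2ac19-low arrays. Asns, asparagine synthetase, differed by 0.31 in the fit with the set term (unadjusted p = 0.000143, adjusted p = 0.174) and the folate enzyme Aldh1l2 by 0.34 (unadjusted p = 0.00268), and these with Mthfd2 were the 3 of 11 measured members within 0.005. Of the cytosolic tRNA synthetases 12 of 13 detected members were higher (median 0.12, 0.13 without THC replicate 1), and 3 of 15 measured members were within 0.005 with the set term. These were Aars (0.35), Cars (0.35, adjusted p = 0.0901) and Sars (0.26). Of the amino acid transporters 7 of 11 were higher (median 0.04), also within each set (medians of 0.04 and 0.05), and Slc1a4 and the glycine transporter Slc6a9 (0.81, unadjusted p = 0.000106, adjusted p = 0.163) were within 0.005. In that fit Slc7a5, Slc3a2 and Slc1a5 differed by 0.21, 0.08 and -0.06.

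No ER chaperone was called with THC. Hspa5 gave 8.90, 9.65, 9.66 and 9.72 with THC and 8.67, 9.07 and 10.26 as the lowest, median and highest Cntr value, with a difference of 0.26 (SE 0.26). Of 17 detected ER quality control genes 13 were higher, with a median of 0.10, which was -0.02 within the H2ac19-high arrays (6 of 17 higher) and 0.15 within the H2ac19-low arrays (15 of 17). Between THC+LPS and LPS the list median was 0.21. Hsp90b1 and Pdia4, a chaperone and a disulfide isomerase of the ER, differed by 0.05 and -0.07, and Xbp1 by 0.15. Edem1, which marks misfolded glycoproteins for removal, was the only other member within 0.005 with the set term, and was lower (-0.16). Without THC replicate 1 and without the set term, 3 of 25 measured members were higher within 0.005, as were 61 of all 24611 probes. They were Herpud1, Creld2 (0.27, unadjusted p = 0.00439) and Xbp1 (0.34, unadjusted p = 0.00498), the last 2 with an adjusted p of 1.00. Creld2 and Xbp1 were among the 42 of 85 probes within 0.005 in this fit that were not within it with all arrays.

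The promoters of the lists differed in the motifs they held. CARE stood in 7 of 16 promoters of the integrated stress response list (43.8%), 5 of 9 of the tRNA synthetases (55.6%), 2 of 9 of the amino acid synthesis genes (22.2%), 2 of 8 of the amino acid transporters (25%), and in 1 of 22 of the ER list, namely that of Herpud1. It stood also in 2 of 4 promoters of the neuron markers (50%). ERSE stood in 9 of 22 ER promoters, of which the detected Hspa5, Hsp90b1, Creld2, Syvn1 and Ero1b differed by 0.26, 0.05, 0.11, 0.24 and 0.12, none with an unadjusted p under 0.05. Atf3 and Got1 hold CARE and differed by 0.25 and 0.06, while Mthfd2, Ddit3 and Slc6a9 have no match in this window.

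Among named genes outside these lists, the largest differences of detected probes whose groups did not overlap were modest, and none of them passed adjustment. Glrp1, a glutamine-repeat protein, gave 9.72, 9.79, 9.53 and 9.78 with THC against a lowest, median and highest Cntr value of 8.55, 8.96 and 9.42. The difference was 0.74 (SE 0.19, unadjusted p = 0.00107), and it was 0.74 also without THC replicate 1. Pde4dip, a centrosomal and Golgi scaffold that binds phosphodiesterase 4D, gave 10.20, 10.59, 10.36 and 10.49 against 9.59, 9.88 and 10.11, a difference of 0.55 (SE 0.17), and its 4 THC values were evenly above the controls.

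Lmo4, a LIM-only transcriptional cofactor, was uniform in the controls (12.43 to 12.55) and gave 13.38, 13.07, 12.62 and 12.87 with THC. The difference of 0.47 (SE 0.10, adjusted p = 0.911) was 0.33 without THC replicate 1, its highest array. The other 8 higher genes of this kind were Tha1 (threonine aldolase, 0.52), AW549877 (0.35), Psmd10 (the proteasome assembly factor gankyrin, 0.32), Bri3 (0.28), Zdhhc12 (a palmitoyltransferase, 0.27), Tmem177 (0.26), Lxn (latexin, a carboxypeptidase inhibitor, 0.23) and Tctex1d2 (a dynein light chain, 0.22). Psmd10 and Tctex1d2 were at 0.22 and 0.15 without that array.

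The lower genes of this kind changed less. Usf2, an E-box transcription factor, had the smallest unadjusted p among them (4.88e-05, adjusted p = 0.601), with 8.23, 8.44, 8.38 and 8.44 under THC against 8.51, 8.56 and 8.66, a difference of -0.21 (SE 0.04). Luzp1 (-0.38), Heatr5a (-0.33), Bcl9l (a β-catenin cofactor, -0.29) and Cyhr1 (-0.16) were the others. Other probes of Usf2 (0.01) and Cyhr1 (0.24 and 0.16) did not share the sign. At 2-fold or more there were 3 higher and no lower probes among the 96.

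Genes of the antioxidant factor NRF2 lay slightly above control on all THC arrays, with list medians of 0.18, 0.18, 0.19 and 0.23, but Cntr replicate 6 was at 0.19, so the groups overlapped. Of 16 detected members 15 were higher (median 0.24, 0.19 without THC replicate 1). None of the 21 measured members passed 0.005 in the fit of all groups, and Osgin1 did with the set term (0.33, unadjusted p = 0.00219). Hmox1, heme oxygenase, gave 13.19, 14.17, 13.97 and 14.01 against a lowest, median and highest Cntr value of 13.09, 13.30 and 13.67. Here THC replicate 1 was the array that stayed in the control range, and the difference of 0.49 (SE 0.29, unadjusted p = 0.111) was 0.70 without it.

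Cholesterol synthesis genes lay below control, none of 16 detected members being higher, with a median of -0.23. The list medians of the THC arrays were -0.59, 0.05, -0.31 and -0.11, so that THC replicates 1 and 3 carried most of it, and the median without replicate 1 was -0.11. It was -0.25 within the H2ac19-high arrays (1 of 16 higher) and -0.09 within the H2ac19-low arrays (2 of 16). Between THC+LPS and LPS the median of this list was 0.01. Cyp51, lanosterol demethylase, gave 10.28, 11.49, 10.75 and 11.20 against 11.19, 11.49 and 11.83, a difference of -0.60 (SE 0.20, unadjusted p = 0.00601) that was -0.39 without replicate 1. Sqle, squalene epoxidase, and Cyp51 were within 0.005 with the set term (-0.25 and -0.52), where 0.256% of all probes were lower. A dimmer detected probe of Sqle differed by -0.58 in that fit (unadjusted p = 0.000143).

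Inflammatory and interferon genes varied with the array set in both groups. The median of 16 detected interferon-stimulated genes was 0.34, -0.47, 0.73 and -0.28 on THC replicates 1 to 4, high on both H2ac19-high arrays and low on both others, and Cntr replicates 1 and 4 were high likewise. Over all arrays it differed by 0.08 and without THC replicate 1 by -0.00. Within the H2ac19-high arrays the difference was -0.19 (1 of 16 higher), and within the H2ac19-low arrays 0.03 (10 of 16). Inflammatory cytokines and chemokines (15 detected) had a median of 0.16, which was 0.06 without THC replicate 1. Their median was -0.08 within the H2ac19-high arrays (6 of 15 higher) and 0.05 within the H2ac19-low arrays (10 of 15). Tnf gave 11.73, 9.88, 10.23 and 9.88 against 9.05, 9.87 and 10.29 in Cntr, so that its difference of 0.69 (SE 0.29) came to 0.26 without replicate 1. Neither list had a member within 0.005 in either fit.

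Cell cycle genes were slightly lower, 6 of 23 detected members being higher (median -0.09, -0.07 without THC replicate 1), with none within 0.005. Of the microglia markers 15 of 22 were detected on all 10 arrays, while P2ry12, Sall1 and Entpd1 were detected on none and Itgam, the CD11b gene, on 2. The detected markers had a median of -0.18, and -0.06 without replicate 1. This median was -0.32 within the H2ac19-high arrays (3 of 15 higher) and -0.04 within the H2ac19-low arrays (4 of 15). C1qa, a complement component, was within 0.005 with the set term (-0.43). Markers of other cell types were mostly not detected, with 0 of 7 detected on all arrays for astrocytes, 1 of 7 for neurons (Tubb3), 1 of 6 for oligodendrocytes (Cnp) and 0 of 8 for fibroblasts.

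No cannabinoid receptor transcript was called. Cnr2 (CB2) gave 7.86, 8.08, 8.20 and 8.03 with THC and 7.87, 8.01 and 8.14 as the lowest, median and highest Cntr value, with a difference of 0.02 (SE 0.05). Cnr1 (CB1) was not detected on every array. Of 11 detected endocannabinoid genes 7 were higher (median 0.02), and none of 18 measured was within 0.005. Nr4a2, an orphan nuclear receptor and CREB target, was within 0.005 in the fit of all groups (-0.31, SE 0.09, unadjusted p = 0.00223), with 7.91, 7.96, 7.98 and 8.07 against 8.04, 8.29 and 8.57. Without THC replicate 1 it was not (-0.29, unadjusted p = 0.00904). Vegfa, a growth factor that ATF4 and hypoxia both induce, gave 9.46, 10.15, 9.19 and 9.80 against 8.88, 9.20 and 9.28, with a difference of 0.50 (SE 0.18, unadjusted p = 0.0114). Of the 511 different genes measured over 30 lists, Herpud1, Nupr1 and Nr4a2 were the 3 within 0.005 in the fit of all groups (0.587%, beside 0.39% of all probes), and of these 1, Herpud1, remained without THC replicate 1.

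**Figure D3:**
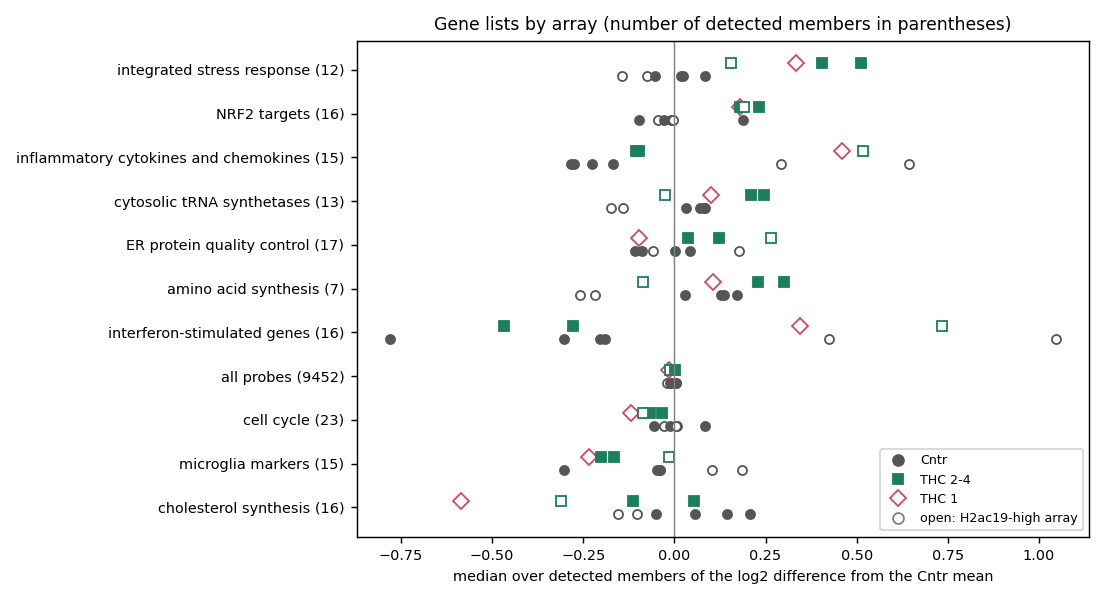
Median over the detected members of each list of the log2 difference from the Cntr mean, for every Cntr array (circles), THC replicates 2 to 4 (squares) and THC replicate 1 (diamond), open where the array was H2ac19-high, with all detected probes for reference. The 4 THC arrays lie at or above 0.16 for the integrated stress response and between 0.18 and 0.23 for NRF2 targets, where Cntr replicate 6 lies among them at 0.19, while interferon-stimulated genes split by array set in both groups.

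THC replicate 1 stood apart from the other arrays in inflammatory genes such as Saa3. It had the lowest mean correlation with its own group of the 10 arrays (0.991), and it lay beyond all 9 other arrays on 1099 probes upward and on 1231 downward. The 9 others ranged from 553 to 1781 upward and from 425 to 1876 downward, with the highest of both on Cntr replicate 6. Of those 1099, 309 (28.1%) were called higher with LPS against Cntr, compared with 10.5% of all detected probes. Of the 1231, 440 (35.7%) were called lower with LPS, compared with 17.5%. Both steps used the same 6 Cntr arrays, which can raise these shares above those of all detected probes. Saa3, an acute phase protein of activated macrophages, was at 15.05 on THC replicate 1 and at 8.95 to 10.33 on the 9 others. On the LPS arrays it was at 14.98 to 15.14.

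The match with LPS was partial. Nfkbiz, an NF-κB cofactor, was at 12.84 (LPS arrays 13.37 to 14.03), but Socs3, a feedback inhibitor of cytokine signaling, at 10.40 and the costimulatory receptor Cd40 at 9.83 stayed well below the LPS arrays (11.88 to 13.33 and 12.43 to 13.57). Cdkn1a (p21) went the other way, at 8.36 on THC replicate 1, 9.78 to 10.50 on the 9 others and 12.64 to 13.58 with LPS. Whether that array had met LPS or another stimulus was not tested. Of the stress genes, Herpud1 (1.33 to 1.19) and Nupr1 (1.12 to 1.02) were smaller without it, and Slc1a4 (1.01 to 1.14), Chac1 (1.46 to 1.60) and the unnamed probe (1.90 to 2.06) were larger. Tnf (0.69 to 0.26) and Aif1, a microglial actin-binding protein (0.70 to 0.16), were smaller as well.

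**Figure D4:**
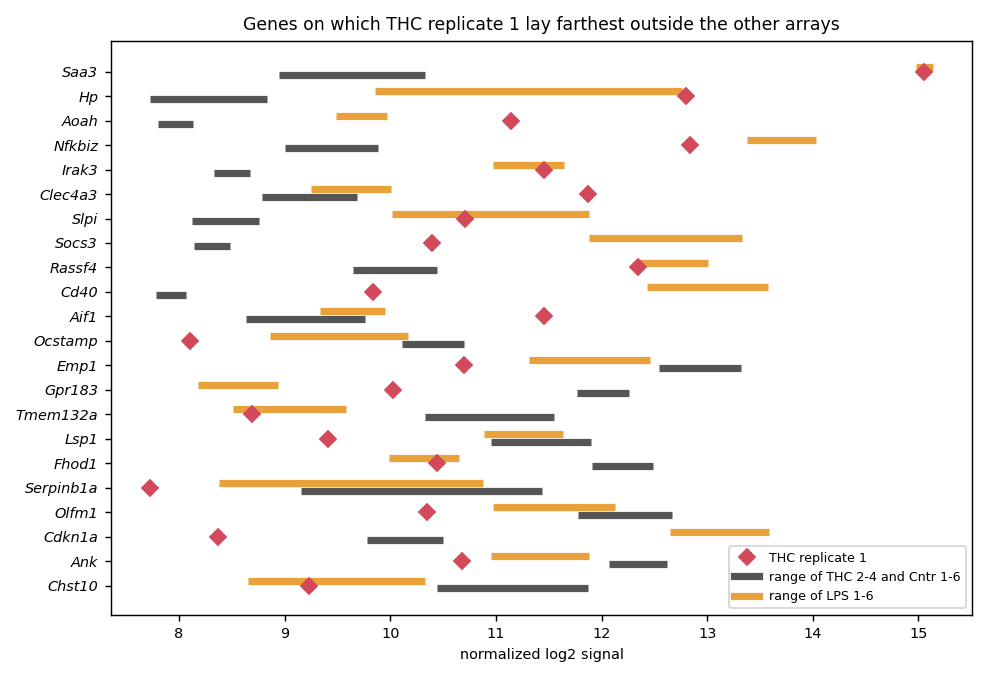
Normalized log2 signal of THC replicate 1 (diamond) for the genes on which it lay farthest outside the other arrays, with the range of the 9 other THC and Cntr arrays (grey bar) and of the 6 LPS arrays (orange bar). Saa3 lies in the LPS range, Cd40 and Socs3 lie between both ranges, and Cdkn1a lies below both.

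The same THC exposure was measured a second time in cells that then received LPS, on arrays that share none with THC and Cntr. Both comparisons hold the H2ac19-high arrays in the same proportion, 2 of 4 with THC and 2 of 6 without. Of the 29 probes higher with THC within 0.005 and detected on all 10 arrays, 26 were also higher in THC+LPS than in LPS, where 47.2% of detected probes were, and 12 of them had an unadjusted p under 0.05, which 1.85% of all probes reached upward. Of the 14 lower ones, 7 were lower and 1 reached 0.05 (1.79% of all probes downward). Over the 9452 detected probes, which are no independent replicates, the differences correlated with r = 0.398. With the set term in the fit, 27 of the 29 were higher in THC+LPS and 12 of them reached 0.05 (2.66% of all probes upward), 7 of the 14 were lower and 1 reached 0.05 (2.18% downward), and r was 0.319. In this second comparison 81 probes (0.329%) were within 0.005 and none passed adjustment, with 896 at an unadjusted p under 0.05.

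Glrp1 gave 10.56, 10.27, 10.60 and 10.43 with THC+LPS and 9.11, 9.44 and 10.08 as the lowest, median and highest LPS value, with a difference of 0.88 (unadjusted p = 0.000217), and its groups did not overlap in either setting. Herpud1 was already high with LPS alone (11.26, 11.33 and 11.52), and THC+LPS gave 12.02, 11.54, 12.03 and 11.99, a difference of 0.54 (unadjusted p = 0.00543). The THC difference was smaller with LPS by 0.79 (95% interval 0.28 to 1.30), with an unadjusted p of 0.00427 and an adjusted p of 1.00, so it was not called. Herpud1 was picked for its difference without LPS, which this contrast contains, so the choice alone can enlarge the gap. Of the 17 genes named above for adjusted p or for non-overlapping groups, 11 had the same sign in both settings and 7 of them reached an unadjusted p of 0.05. Psmd10, Bri3, Lxn and Tctex1d2 were at -0.01, -0.01, 0.01 and -0.04 with LPS.

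With the array set as a term, 5 probes were higher in THC+LPS than in LPS past an adjusted p of 0.05 (158 probes within 0.005, 0.642%), and 3 of them were those called without LPS. The slope of the set is shared by both comparisons in this fit, so they are not wholly independent. Eif4ebp1 differed by 0.39 (adjusted p = 0.0112), Slc1a4 by 1.12 (0.0243) and the unnamed probe by 1.84 (0.0157), close to their 0.43, 1.18 and 2.07 without LPS. Slc1a4 gave 10.47, 8.75, 10.17 and 9.34 with THC+LPS against 8.34, 8.78 and 9.03 with LPS, THC+LPS replicates 2 and 4 being the H2ac19-high arrays. Cars (0.41, adjusted p = 0.0243) and Vegfa (0.88, adjusted p = 0.0195) were called with LPS and not without it (0.35, adjusted p = 0.0901, and 0.56, adjusted p = 0.269). No probe passed adjustment for the difference between both settings, with 65 probes (0.264%) within 0.005.

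**Figure D5:**
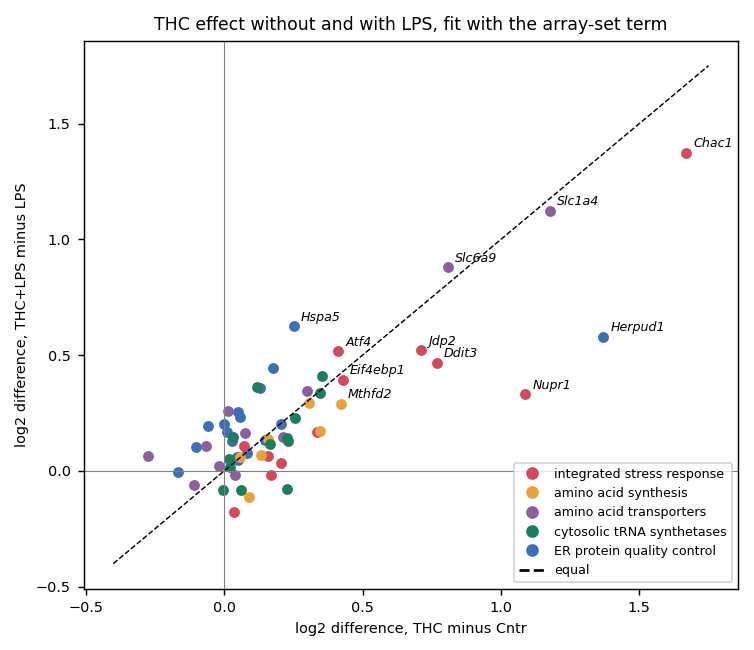
Log2 difference of THC against Cntr (x axis) and of THC+LPS against LPS (y axis) in the fit with the array-set term, for detected genes of 5 stress lists in colour, with the dashed line marking equal differences. Slc1a4 lies near the line (1.18 and 1.12), and Herpud1 and Nupr1 lie below it.

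CBD, an isomer of THC with an open instead of a closed pyran ring, was given at the same dose and time, and 8 of the 74 genes named by rule were called higher with it than with THC. Without CBD replicate 1 the count was 1. This single pair of compounds was compared over all probes, with 128 higher with CBD (0.52%) and 54 lower (0.219%) past an adjusted p of 0.05, on 2 CBD arrays. Nupr1 was at 13.62 and 12.55 with CBD and was higher than with THC by 2.06 (adjusted p = 0.021). Glrp1, at 11.65 and 10.94, was higher by 1.59 (adjusted p = 0.0073).

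Slc6a9 was higher by 2.14 (adjusted p = 0.0114), Aldh1l2 by 1.28 (0.024), Pde4dip by 1.04 (0.041), Vegfa by 1.08 (0.0406) and Cars by 0.82 (0.0484). Ddit3, which the rule did not name, was higher by 3.05 (adjusted p = 0.0114). This comparison has no array-set term, as the CBD arrays stay out of the split. Metallothionein Mt2, which buffers zinc and copper, had the smallest adjusted p of the genes named here (3.44e-05), with a difference of 2.78 and signals of 13.17 and 13.04 against 9.93, 10.52, 10.20 and 10.65 under THC and 9.39 to 10.31 in Cntr. Herpud1 gave 11.34 and 11.44 with CBD, both above the 4 THC values. Its difference was 0.58 with a 95% interval of 0.10 to 1.06 and an adjusted p of 0.35, so that a difference between both compounds was not called for the gene that rose with THC.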

How the data were processed

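BV-2 RNA from 24 arrays in 6 groups, of which 4 THC and 6 Cntr arrays are compared here, was measured on Illumina MouseRef-8 BeadChips. For 24611 probes the authors deposited an intensity, the mean signal over the beads, and a detection p-value per array. A further deposited table holds log2 values, found here to be those intensities after quantile normalization (largest difference 5e-09). The scanner software is not given in the sources used here. The number of arrays limits the precision.

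Background correction by normexp, guided by the detection p-values, was followed by an offset of 16, quantile normalization and log2 transformation (neqc, limma 3.58.1, statmod 1.5.0, R 4.3.3). Differences are therefore of log2 of the corrected signal plus offset, which understates the change of dim genes. A linear model with 6 group means was fitted to all 24 arrays with moderated variances, with Benjamini-Hochberg adjustment across the 24611 probes. A probe was called at an adjusted p under 0.05, and 0.005 unadjusted, the study's threshold, was used for counts. A probe counts as detected at a detection p under 0.05. Every p for fewer than 10 arrays is limma's unless a permutation is named. The script was tested on simulated data.

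Gene names came from the platform table, updated to RefSeq GRCm38.p6, for 19851 probes, and 4760 stayed unnamed. Named genes were those past the adjusted threshold, the 12 largest differences per direction within 0.005 whose groups did not overlap and that were detected, and up to 4 members of each list, from the brightest probe. Of 607 entries in 30 lists 540 were measured, 511 different genes. Members and lists were chosen with earlier results of these data known. Other genes named, those from the fit with the array set and the genes on which THC replicate 1 stood apart, were chosen after their values were seen.

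Alternatives were the authors' log2 values, the offset, median scaling, dim probes, the variance prior, the arrays in the fit, array weights, a replicate block, other probes and each array left out. The first residual component and the array set, alone or without THC replicate 1, were chosen after seeing the data.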

Additional observations from a re-analysis of the deposited data

Results flagged for a closer look

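Of 128 groups of 4 or 6 arrays examined, 6 held an array whose gap to the nearest other exceeded Dixon's 95% critical value. Chance alone would flag about as many. The groups covered the genes named within 0.005, the probes called with the array set, and the detected members of 4 lists, the integrated stress response and the amino acid and tRNA synthetase genes. Lmo4 was lower on Cntr replicate 1 (12.43, nearest 12.52) and Zdhhc12 on Cntr replicate 6 (12.06, nearest 12.49). Among the THC arrays, Nupr1 was lower on replicate 3 (10.30, nearest 11.22), Ddit3 was higher on replicate 4 (9.34, nearest 9.01), and Lrrc14b (8.92, nearest 9.83) and Zan (7.90, nearest 8.38) were lower on replicate 1. Lrrc14b and Zan were examined only because they were called without THC replicate 1, so their flags follow from that choice and cannot be set against chance.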

How the results depend on the processing

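The 96 probes within 0.005 became 16 with median scaling (all higher), which moved the median of all probes by 0.43, 46 with dim probes left out (of 11637 probes), 175 with the first residual component, 200 with the array set and 211 with the array set and without THC replicate 1. It was 84 to 125 under the other settings, and 83 to 131 when each array was left out. The 1 probe called after adjustment became 0 with the THC and Cntr arrays alone and with the replicate block, 2 with the residual component, and 5 and 6 with the array set, without and with THC replicate 1 left out, and it was 0 to 1 when each array was left out (0 without THC replicate 1 and without THC replicate 4). Herpud1 kept its direction in every setting, at 1.19 to 1.44 when each array was left out, but was not called with the 10 arrays alone (1.33, adjusted p = 0.765), with the replicate block (1.41, adjusted p = 0.0999), without THC replicate 1 (1.19, 0.0595) or without THC replicate 4 (1.32, 0.0522). No label says whether the replicate numbers pair the samples. Deviations of same-numbered THC and Cntr arrays correlated at 0.24, 0.09, -0.23 and -0.67 for replicates 1 to 4. These values cannot settle it, since same-numbered arrays fell in the same array set for replicates 1 and 2 and in different sets for replicates 3 and 4. The 3 list genes within 0.005 became 6 with median scaling and 4 without THC replicate 1 (Herpud1 remained, Nupr1 and Nr4a2 were lost, and Creld2, Xbp1 and Ppargc1a, the last detected on none of the 10 arrays, came in), and the 56 probes of the difference between settings became 4 with median scaling and 55 without THC replicate 1. The 7 named genes that also passed with LPS became 5 to 8. The 8 named genes called between CBD and THC became 1 without CBD replicate 1, 11 without CBD replicate 2 and 6 without THC replicate 1. With median scaling 9 of the 96 probes stayed within 0.005 and 76 kept their sign. Among the named genes, Cyhr1 changed sign with median scaling (0.0854) and on its other probes (0.24 and 0.16), and Usf2 on its other probe (0.00906). The cause was not tested for any of these, except that the fit of 10 arrays has fewer samples and the dim filter fewer probes.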
